A study of Mus musculus with 5 samples.

Results

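The genes described here are 10 molecular chaperones of the heat-shock families, taken by name from the gene list of the deposited count tables: *Hspa1a*, *Hspa1b*, *Hspa8*, *Hsp90aa1*, *Hsp90ab1*, *Hsph1*, *Dnajb1*, *Hspb1*, *Hspa5* and *Cryab*. They are 10 of the 33696 genes that all libraries list, and all 10 were detected in Müller glia (MG), the main glial cells of the retina. Single cells were captured from mouse retina 56 days after intravitreal injection of an adeno-associated virus (AAV). The mice were *Glast-CreERT2; Rosa26-Ai65* (C57BL/6J), of both sexes and 12 to 20 weeks old. Controls received ShH10-GFAP-mKate2 (*mKate2* AAV, 16 retinas pooled), a virus that makes a red fluorescent protein, and the other group received ShH10-GFAP-Yap5SA (*Yap5SA* AAV, 21 retinas pooled), a virus that makes a form of the co-activator YAP that the Hippo kinases cannot switch off. Both groups carried the same Cre driver and reporter, both had tamoxifen, and both viruses also encoded the FlpO recombinase, so that tdTomato marks cells that met Cre and virus. The *Gfap* promoter drives the viral cargo, and it is a glial promoter whose own gene responds to injury. tdTomato-positive cells were sorted after a papain digestion at 37 °C and loaded at once for 3′ single-cell RNA sequencing.

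Chaperones bind unfolded protein and help it fold or pass it on to be degraded. The HSP70 proteins work in a cycle of ATP binding in which a J-domain protein delivers the client and starts hydrolysis, and an HSP110 protein or a BAG protein releases the nucleotide, while the HSP90 proteins take over late folding intermediates such as kinases and steroid receptors. Under heat or other proteotoxic stress the factor HSF1 binds heat shock elements, which are inverted repeats of the unit GAA, and switches on the inducible members within minutes, whereas misfolded protein in the endoplasmic reticulum (ER) acts on *Hspa5* through the ER stress element. MG are known for constitutive *Cryab*, and enzymatic digestion of tissue at 37 °C is known to induce immediate-early and heat-shock genes in single-cell preparations.

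Promoter stretches of the members are shown because heat shock and ER stress elements are the switches by which the inducible genes and the ER chaperone are known to respond. RefSeq promoter windows on GRCm38.p6, from 250 bases before to 50 bases after the start of transcription, were found for 6 of the 10 members in 8 windows. Capitals mark the matched bases. The 120 bases before the start are given for *Hspa1a* (chr17:34972157-34972276, minus strand), *Hspa1b* (chr17:34959239-34959358, minus strand), *Hspb1* (chr5:135887799-135887918, plus strand) and *Hspa5* (chr2:34771970-34772089, plus strand), and 26 bases downstream of the start for *Hsph1* (chr5:149636281-149636306, minus strand).
Hspa1a: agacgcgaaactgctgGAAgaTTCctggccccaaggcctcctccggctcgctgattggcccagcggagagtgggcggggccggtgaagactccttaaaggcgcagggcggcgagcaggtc
Hspa1b: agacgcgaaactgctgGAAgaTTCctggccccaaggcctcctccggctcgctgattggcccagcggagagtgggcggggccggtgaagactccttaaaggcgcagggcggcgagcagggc
Hspb1: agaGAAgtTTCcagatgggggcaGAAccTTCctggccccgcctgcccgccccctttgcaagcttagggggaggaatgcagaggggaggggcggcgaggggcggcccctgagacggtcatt
Hsph1: tgcagaTTCtgGAAagTTCtcctcag
Hspa5: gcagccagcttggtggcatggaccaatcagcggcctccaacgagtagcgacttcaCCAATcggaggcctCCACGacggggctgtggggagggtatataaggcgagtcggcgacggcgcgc

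The element of 2 units GAANNTTC, read on both strands, stands in 7.86% of the 32851 RefSeq promoters and in 4 of the 6 members with a window, and it begins 104 bases before the start in *Hspa1a* and *Hspa1b* and 117 and 97 bases before it in *Hspb1*. The element of 3 units GAANNTTCNNGAA (other strand TTCNNGAANNTTC), which contains the shorter one, stands in 0.603% of all promoters and among the members only in *Hsph1*, 16 bases downstream of its second annotated start. The inverted order TTCNNGAA stands in 8.52% of all promoters, and among the members in *Hsph1* alone, where 1 match overlaps the same site and another begins 54 bases before the second start. The ER stress element, CCAAT and CCACG 9 bases apart, stands in 0.119% of all promoters and among these members in *Hspa5* alone, beginning 65 bases before the start. The *Dnajb1* window held none of these letters. The windows of *Hspa1a* and *Hspa1b* are identical at 296 of 300 bases (98.7%). The transcripts of these neighbours are nearly the same too, so the split of their reads between the pair is uncertain and their sum is given beside them. A match is a description of the sequence and no measurement of binding.

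Of the 5 libraries deposited, 4 were analysed. They are called mKate2-1, mKate2-2, Yap5SA-1 and Yap5SA-3 after the virus and the replicate number of the labels. The remaining one, Yap5SA-2, shares 1361 cell barcodes with Yap5SA-1, 99.8% of its own, and was left out as the same cells, while the other pairs share 0 to 7 barcodes. MG were the cells with at least 1000 unique molecular identifiers (UMIs), at most 15% mitochondrial UMIs and at least 0.5% of UMIs on *Glul*, *Rlbp1*, *Slc1a3*, *Clu* and *Aqp4*. This gave 6540 MG among 15293 cells, 1498 and 2898 in mKate2-1 and mKate2-2 and 803 and 1341 in Yap5SA-1 and Yap5SA-3. The 4 libraries hold between 13132765 and 50938304 UMIs. Other MG markers that the rule did not use summed to between 6726 and 8208 CPM (counts per 1000000 UMIs of the summed cells) in MG and to between 226 and 455 CPM in microglia-like cells of the same libraries, for 6 genes from *Sox9* to *Dbi*. A seventh marker, *Apoe*, which microglia also express, was set aside after the values were seen, since with it the sums were 13175 to 18681 CPM in MG and higher, 22452 to 33089 CPM, in microglia-like cells. The file headers separate the libraries, since mKate2-1 and Yap5SA-1 name Cell Ranger 8.0.0 and mKate2-2 and Yap5SA-3 name 9.0.1, and each version holds both viruses. The median MG held 6194.5 and 10778 UMIs in the 8.0.0 libraries and 2918.5 and 2920 UMIs in the 9.0.1 libraries, so version, depth and any difference of the preparations cannot be told apart. No source says whether replicate libraries came from separate pools of retinas, and p-values between libraries then measure a spread that may be technical.

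*Hspa1a*, *Hspa1b* and *Dnajb1*, which are stress-inducible, differed more between the libraries of either virus than between the means of the viruses. *Hspa1a*, the inducible HSP70 (GRCm39 chr17:35188166-35191132), was at 4.88 and 330.3 CPM in MG of mKate2-1 and mKate2-2 and at 6.03 and 136 CPM in those of Yap5SA-1 and Yap5SA-3. *Hspa1b*, its near copy (chr17:35175412-35178214), was at 9.09 and 226 CPM and at 6.34 and 104 CPM in the same order. Within each virus the library with a 9.0.1 header was the high one, and the highest library exceeded the lowest 67.7-fold for *Hspa1a* and 35.6-fold for *Hspa1b*. The pair together reached 14.0 and 556 CPM and 12.4 and 239 CPM, which shows the same pattern whichever way their reads were divided.

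*Dnajb1* (chr8:84334811-84339820), the J-domain partner of inducible HSP70, was at 13.6 and 749 CPM in MG of the *mKate2* AAV libraries and at 29.6 and 421 CPM in MG of the *Yap5SA* AAV libraries. *Hsph1* (chr5:149537636-149560156), an HSP110 exchange factor, was at 70.0 and 258 CPM and at 69.1 and 106 CPM. *Dnajb1* thus covered a 55.3-fold range and *Hsph1* a 3.74-fold range, again with both 9.0.1 libraries on top. For *Hsph1* the means of the viruses, 164 and 87.6 CPM, lay further apart than the *Yap5SA* AAV libraries did.

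The small heat-shock proteins, which hold unfolded protein without ATP, did not follow that order as a pair. *Hspb1* (chr5:135916760-135918417) was at 26.9 and 409 CPM in MG of the *mKate2* AAV libraries and at 195 and 46.3 CPM in MG of the *Yap5SA* AAV libraries, so that its high libraries were mKate2-2 and Yap5SA-1. *Cryab* (chr9:50651859-50668567), αB-crystallin, was at 798 and 1085 CPM and at 707 and 1076 CPM, a 1.53-fold range that was the smallest of the 10. *Hspb2* lies on the opposite strand inside the annotated span of *Cryab*. Markers of lens, a tissue that makes crystallins, summed over 8 genes to 4.38 and 109 CPM and to 11.6 and 196 CPM in the same MG, and the defining lens gene *Cryaa* was at 0 UMIs in both 8.0.0 libraries and at 16.5 and 25.9 CPM in the 9.0.1 libraries. Their part in *Cryab* was not tested.

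*Hspa8*, the HSP90 pair and *Hspa5* had narrower ranges than *Hspa1a*, *Hspa1b* and *Dnajb1*. *Hspa8* (chr9:40711630-40731039), the constitutive HSP70, was at 848 and 1322 CPM in MG of the *mKate2* AAV libraries and at 731 and 965 CPM in MG of the *Yap5SA* AAV libraries. *Hsp90aa1* (chr12:110656842-110669166), the stress-responsive cytosolic HSP90, was at 1099.8 and 2233 CPM and at 922 and 2064 CPM. *Hsp90ab1* (chr17:45878552-45891949), the constitutive HSP90, was at 943 and 1674 CPM and at 1122 and 862 CPM, with its lowest library among the 9.0.1 ones. *Hspa5* (chr2:34661982-34668880), the HSP70 of the ER, was at 406 and 864 CPM and at 351 and 522 CPM. The high and low libraries of *Hspa8*, *Hsp90aa1* and *Hspa5* were those of the inducible members, with ranges of 1.81-fold to 2.46-fold.

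**Figure D1:**
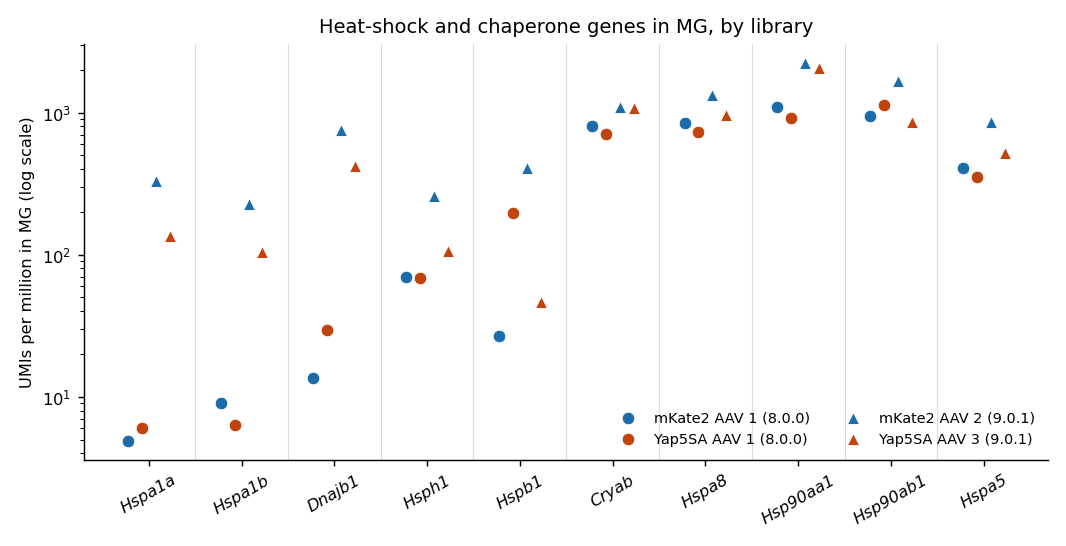
CPM in MG (log axis) of the 10 genes, with 1 point per library, blue for *mKate2* AAV, red for *Yap5SA* AAV, circles for 8.0.0 and triangles for 9.0.1 headers. Both triangles stand above both circles for 8 genes, most widely for *Hspa1a*, *Hspa1b* and *Dnajb1*, and overlap with them for *Hspb1* and *Hsp90ab1*.

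All 10 members together took 0.422% and 0.915% of the UMIs of MG in mKate2-1 and mKate2-2 and 0.414% and 0.630% in Yap5SA-1 and Yap5SA-3. The difference between the viruses, -0.146 percentage points, was smaller than the SD between libraries (0.269 percentage points).

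Between the viruses, the comparison the study was built on, no member passed the test in MG. The mean of the *Yap5SA* AAV libraries was the lower one for all 10, yet the libraries of the viruses overlapped for each of them, while 14.3% of 13486 genes with at least 100 UMIs had libraries that did not overlap between the viruses. *Hspa1a* stood at 168 ± 230.1 CPM with *mKate2* AAV and 70.9 ± 91.8 CPM with *Yap5SA* AAV (mean ± SD, n = 2 libraries each). In edgeR's quasi-likelihood test on the UMIs summed over the MG of a library, the share of genes called among 15285 was 0%, with an unadjusted p under 0.05 for 30 genes, and DESeq2 also called 0, with 52 under 0.05. The log2 fold changes of the members ran from -0.19 ± 0.43 (SE) for *Cryab* to -1.42 ± 2.07 for *Hspa1a*, all with a Benjamini-Hochberg adjusted p of 1.00. Fewer transcripts in each MG and another mix of MG states cannot be told apart in sums over cells.

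The direction of these differences changed with the header version for some members, and without mKate2-2 for all 10. Between the versions it changed for *Hspa1a*, *Dnajb1*, *Hspb1* and *Hsp90ab1*. The other members were lower with *Yap5SA* AAV in the libraries of both versions. Within the 8.0.0 libraries the log2 ratio of *Yap5SA* over *mKate2* AAV was 0.30 for *Hspa1a*, -0.52 for *Hspa1b* and 1.13 for *Dnajb1*, and within the 9.0.1 libraries it was -1.28, -1.12 and -0.83. Without mKate2-2, which leaves 1 *mKate2* AAV library, all 10 fitted differences turned to higher values with *Yap5SA* AAV, as for *Hspa1a* at 3.90 and *Dnajb1* at 4.10. Without Yap5SA-1 the direction in CPM turned as well for some members. Yap5SA-3 alone lay above the mean of the *mKate2* AAV libraries for *Cryab* (1076 against 942 CPM), *Hsp90aa1* (2064 against 1666 CPM) and *Dnajb1* (421 against 381 CPM). For the other members it lay below that mean.

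Between header versions, 8 of the 10 members were above in both 9.0.1 libraries, against 20.4% of the 13486 genes, and 0 were below in both, against 35.7%. In the edgeR fit with virus as a second term, *Hspa1a* had a log2 fold change of 5.43 ± 0.57 (SE), *Dnajb1* one of 4.94 ± 0.70 and *Hspa1b* one of 4.48 ± 0.31 for 9.0.1 over 8.0.0, but with 4 libraries and 1 residual degree of freedom none passed the correction (adjusted p = 0.177, 0.192 and 0.177). The share of all 15285 genes called there was 0%, with an unadjusted p under 0.05 for 1896 genes and 6 members. DESeq2 called 530 genes (3.47%), among them *Hspa1a*, *Hspa1b*, *Dnajb1*, *Hsph1* and *Hsp90aa1*, and the edgeR fit on header version alone called 148 (0.968%), among them the first 3 of these. Without a filter on low counts edgeR called 39 genes (0.16%), *Hspa1a* and *Hspa1b* among them.

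The inducible transcripts lay in the deepest cells of the 9.0.1 libraries. MG of at least 10000 UMIs made up 12.5% of MG in each 9.0.1 library, and held 57.1% and 53.7% of all MG UMIs and 97.5% and 96.8% of the *Hspa1a* UMIs in mKate2-2 and Yap5SA-3. In mKate2-1 and Yap5SA-1 the equally deep MG held 62.4% and 82.2% of all MG UMIs and 84.5% of the *Hspa1a* UMIs in each. *Hspa1a* was at 563.8 and 245 CPM in the deep MG of mKate2-2 and Yap5SA-3. It was at no more than 24.7 and 10.1 CPM in any shallower stratum of mKate2-2 and Yap5SA-3. *Hspa1b* reached 383 and 187 CPM in these deep MG and *Dnajb1* 1258 and 767 CPM, where the shallower strata of *Dnajb1* ended at 78.0 and 28.9 CPM. The deep MG of the 8.0.0 libraries stood at 6.61 and 6.19 CPM of *Hspa1a* and 14.0 and 31.2 CPM of *Dnajb1* (*mKate2* AAV first), where no shallower stratum held more than 2.71 and 11.8 CPM of *Hspa1a* and 17.2 and 33.1 CPM of *Dnajb1*.

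The HSP90 pair and the HSP110 gene showed parts of this picture. *Hsp90aa1* went from 1039 CPM in MG of under 2000 UMIs to 3101 CPM in those of at least 10000 UMIs in mKate2-2, and from 1212 to 2675 CPM in Yap5SA-3. *Hsph1* went from 52.4 to 408 CPM and from 43.1 to 151 CPM between the same strata. *Hsp90ab1* went the other way in these libraries, from 2171 to 1380 CPM and from 877 to 740 CPM. In the 8.0.0 libraries *Hsp90aa1* stood at 1161 against 1122 CPM and at 960 against 964 CPM.

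*Hspa5* was higher in deep MG in all 4 libraries, at 419 against 197 CPM and 1285 against 224 CPM with *mKate2* AAV and at 382 against 229 CPM and 654 against 348 CPM with *Yap5SA* AAV. *Cryab* was lower in deep MG in 3 of the 4, at 758 against 1358 CPM in mKate2-1, 685 against 1135 CPM in Yap5SA-1 and 806 against 1250 CPM in Yap5SA-3, and nearly level in mKate2-2 (1019 against 1037 CPM). The 8 lens markers stood at 14.3 against 566 CPM and 12.4 against 184 CPM between these strata of mKate2-2 and Yap5SA-3, and at 4.45 against 6.71 CPM and 13.4 against 0 CPM in mKate2-1 and Yap5SA-1, where *Cryab* was lower as well. *Hspb1* stood at 580 against 166 CPM in deep MG of mKate2-2 and at 213 against 130 CPM in Yap5SA-1, its 2 high libraries. It was higher in deep MG of mKate2-1 (28.3 against 22.4 CPM) and Yap5SA-3 (46.6 against 19.9 CPM) too. The shallow strata of these held only 10 and 12 *Hspb1* UMIs.

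**Figure D2:**
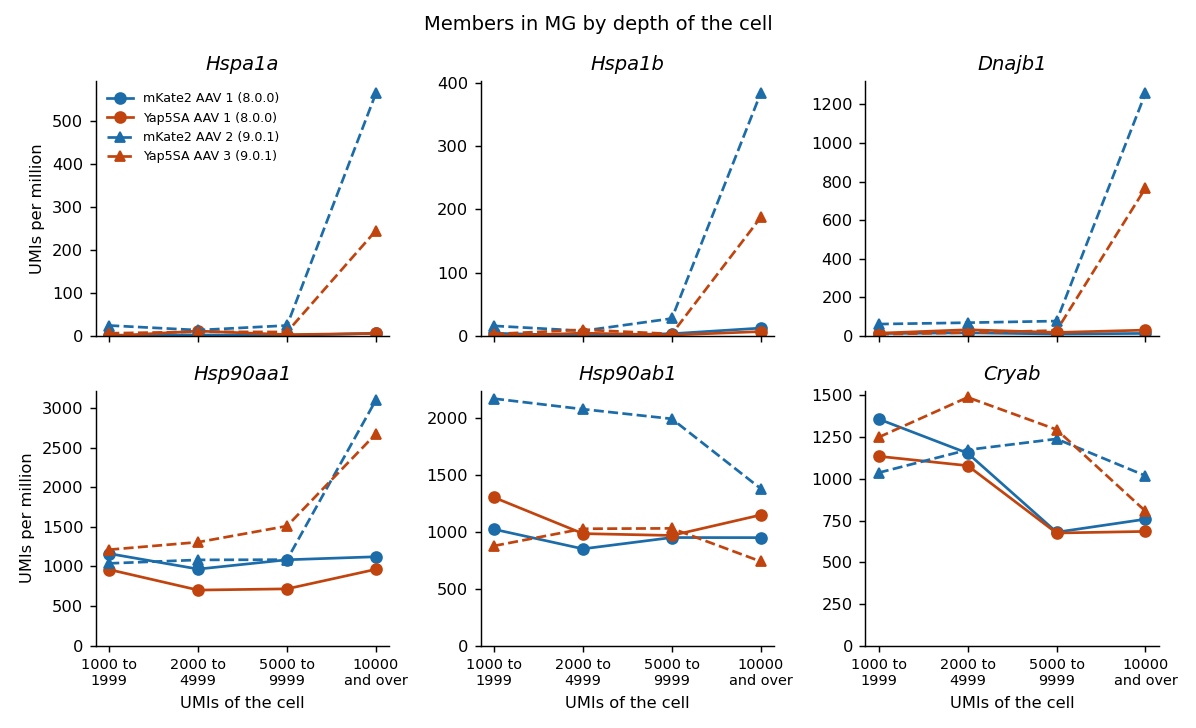
CPM of 6 members in MG by the UMIs of the cell (4 strata that begin at 1000, 2000, 5000 and 10000 UMIs), with 1 line per library, colours and symbols as before and dashed lines for 9.0.1. *Hspa1a*, *Hspa1b* and *Dnajb1* stay low in every stratum but the deepest of the dashed lines, where *Hspa1a* reaches 563.8 and 245 CPM.

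The test across libraries set MG of at least 5000 UMIs against shallower MG with the library as a block. It called 4847 of 14582 genes, 33.2% of all (19.1% higher and 14.2% lower in the deeper MG), and 5 of the 10 members. DESeq2 called 29.5% and 3 of these 5, *Hspa1b*, *Hspa5* and *Cryab*. *Hspa1b* (log2 fold change 3.95 ± 0.43 SE, adjusted p = 0.000853), *Hspa1a* (3.62 ± 0.67, adjusted p = 0.00297), *Dnajb1* (2.40 ± 0.85, adjusted p = 0.0496) and *Hspa5* (0.86 ± 0.24, adjusted p = 0.0193) rose in the deeper MG, and *Cryab* fell by 0.77 ± 0.19 (adjusted p = 0.0122). *Dnajb1* is at the edge of the threshold. Its adjusted p was 0.217 without mKate2-2 and 0.193 without Yap5SA-3, 0.0514 with RLE size factors, 0.062 without MG that met another class rule and 0.0689 with Yap5SA-2 in place of Yap5SA-1. That of *Hspa5* was 0.113 without mKate2-2 and that of *Cryab* was 0.0506 without mKate2-1, and a minimum MG marker share of 1% ended both calls (adjusted p = 0.122 and 0.0705). A limit of 8000 UMIs left *Hspa1b* alone (adjusted p = 0.0466) among 0.135% of genes called, and a limit of 10000 UMIs called 0 genes at all (4090 at an unadjusted p under 0.05).

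The difference of that depth effect between header versions was a test added after these values were seen. It called 2483 of 14582 genes (17%, of which 10.1% larger and 6.89% smaller in 9.0.1) and 6 members, all with a larger rise in deep MG of the 9.0.1 libraries: *Dnajb1* (4.46 ± 0.38 on the log2 scale, adjusted p = 4.69e-19), *Hspa1a* (4.29 ± 0.70, adjusted p = 5.77e-07), *Hspa1b* (2.66 ± 0.83, adjusted p = 0.0157), *Hsph1* (1.89 ± 0.27, adjusted p = 1.31e-08), *Hsp90aa1* (0.84 ± 0.23, adjusted p = 0.00377) and *Hspa8* (0.72 ± 0.22, adjusted p = 0.0144). DESeq2 called 8.56% of genes, the same 6 members and *Hsp90ab1* in the other direction. Without mKate2-1 only *Dnajb1*, *Hspa1a* and *Hsph1* of the 6 passed, and without Yap5SA-1 the same 3. Without mKate2-2 *Hspa1b* alone was lost. These p-values rest on edgeR's pooling of the spread over genes, since few degrees of freedom remain within a gene.

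Other measures moved with the deep 9.0.1 MG. A list of 16 immediate-early genes summed to 41597 and 28512 CPM in the deep MG of mKate2-2 and Yap5SA-3, against 1381 and 3237 CPM in the deep MG of the 8.0.0 libraries and between 2803 and 5451 CPM in the shallower MG of the 9.0.1 libraries. The deep MG of mKate2-2 and Yap5SA-3 had a median of 1.54% and 0.524% mitochondrial and 1.96% and 1.21% ribosomal protein UMIs, and the shallowest MG of the same libraries 8.46% and 6.96% and 12.2% and 11.0%. Both shares were lower in deep MG of the 8.0.0 libraries too. Mitochondrial medians were 2.28% against 5.62% in mKate2-1 and 2.56% against 4.62% in Yap5SA-1. Ribosomal medians were 3.55% against 9.86% and 4.76% against 11.5%. Markers of microglia and macrophages (12 genes) stood in the deep MG of mKate2-2 and Yap5SA-3 at 351 and 68.7 CPM and rod markers (12 genes) at 1385 and 1884 CPM, against 36269 and 36549 CPM and 42186 and 77937 CPM in the microglia-like and rod-like cells of these libraries. Their part in the chaperone values was not tested.

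Pigment epithelium markers without *Rlbp1* (*Rpe65*, *Lrat*, *Ttr*, *Best1*, *Rgr*) summed to 18.9, 539, 216 and 4334 CPM in the MG of mKate2-1, mKate2-2, Yap5SA-1 and Yap5SA-3. In Yap5SA-3 they reached 13413 CPM in MG of 5000 to 10000 UMIs. After 23 such MG were left out of mKate2-2, 3 of Yap5SA-1 and 60 of Yap5SA-3, *Hspa1a* stood at 4.88, 333, 6.04 and 144 CPM and *Dnajb1* at 13.6, 755, 29.6 and 447 CPM, and the depth comparison kept *Hspa1a*, *Hspa1b*, *Hspa5* and *Cryab* while *Dnajb1* had an adjusted p of 0.0516.

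The share of single MG with a UMI of the inducible genes was highest in the deep MG of the 9.0.1 libraries. After each cell was thinned to 1000 UMIs, 53.2% of the 363 deep MG of mKate2-2 (95% Clopper-Pearson interval 47.9% to 58.4%) and 30.5% of the 167 deep MG of Yap5SA-3 (23.7% to 38.1%) held at least 1 UMI of *Hspa1a*, *Hspa1b* or *Dnajb1* (81.0% and 59.9% unthinned, at a median of 22393 and 24210 UMIs). The share was 2.19% (1.06% to 4%) of 456 and 4.42% (2.68% to 6.81%) of 430 deep MG in mKate2-1 and Yap5SA-1, and 6.59% and 2.73% in the shallower MG of the 9.0.1 libraries. Bipolar-like cells, which gave the smallest share of any class other than MG in these libraries, held such a UMI in 4.69% (2.52% to 7.89%) and 7.5% (2.8% to 15.6%) of cells, at a median of 22612 and 17431.5 UMIs. Their share can hold free RNA, which was not estimated, and no bipolar-like cells were found in the 8.0.0 libraries. Whether MG shares at that level come from free RNA was not tested. Microglia-like cells held one in 20%, 9.06%, 8.09% and 25% of cells in mKate2-1, mKate2-2, Yap5SA-1 and Yap5SA-3, rod-like cells in 15.6% and 18% and cone-like cells in 14.6% and 43.1% of cells in mKate2-2 and Yap5SA-3. Unthinned, 180 deep MG of mKate2-2 and 50 of Yap5SA-3 gave at least 1000 CPM to these 3 genes, against 1 in each 8.0.0 library. The deep MG of mKate2-2 had a median of 923 CPM over the 3 genes and those of Yap5SA-3 one of 89.8 CPM, with the top 10% of cells holding 46.2% and 53.0% of the UMIs. Intervals cover counting error only.

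Across the thinned MG of mKate2-2, the pairs of *Hspa1a*, *Hspa1b* and *Dnajb1* had the highest correlations between members (Pearson r = 0.394 for *Hspa1a* with *Dnajb1*, 0.390 for *Hspa1a* with *Hspa1b* and 0.373 for *Hspa1b* with *Dnajb1*, over 2898 MG). In Yap5SA-3 *Hspa1a* with *Dnajb1* was at 0.333 over 1341 MG, the highest of the 36 pairs computed. No pair was computed for a gene with under 50 thinned UMIs, so none with *Hspa1b* exists for Yap5SA-3 and none with *Hspa1a*, *Hspa1b* or *Dnajb1* for the 8.0.0 libraries. These cells share library and base composition, and the values are a description.

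Genes were ranked by their Pearson correlation with the summed members across MG, without thinning, as a mean over the 4 libraries. The top 10 of 8136 were *Ubb*, the stress-responsive ubiquitin gene (mean r = 0.351), *Actb* (0.329), *Gapdh* (0.299), *Ckb*, *Actg1*, *Eno1*, *Ptma*, *Tuba1a*, *Ftl1* and *Mt1* (0.264). In mKate2-2 alone their correlations ran from 0.070 for *Gapdh* to 0.290 for *Actg1*. Depth is shared by these points.

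Between cell classes some members were higher in MG and some higher elsewhere, and others were not called. *Hspa8* was lower in MG than in microglia-like cells and higher than in rod-like cells. Microglia-like cells were cut by their own markers, and 25, 916, 136 and 64 were found in mKate2-1, mKate2-2, Yap5SA-1 and Yap5SA-3. *Cryab* stood at 10.7, 52.5, 15.4 and 24.7 CPM in them, below every MG library. Thinned to 1000 UMIs, between 44.3% and 64.6% of MG and 4%, 2.84%, 2.21% and 4.69% of microglia-like cells held a *Cryab* UMI. *Hspb1* stood at 0, 31.5, 24.9 and 30.4 CPM in the microglia-like cells. None of the 25 cells behind the 0 held a UMI, which allows a share of cells with a UMI of up to 12% by a limit of 3 counts, and of up to 13.7% by the upper end of the exact Clopper-Pearson interval.

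The inducible HSP70 genes went the other way. *Hspa1a* stood at 145, 452, 31.8 and 1804 CPM in microglia-like cells of mKate2-1, mKate2-2, Yap5SA-1 and Yap5SA-3 and *Hspa1b* at 69.9, 355, 22.8 and 1162 CPM, above the MG of the same library in all 4. *Hspa5* stood at 1304, 1081, 1399 and 1403 CPM, also above MG in all 4. Here too Yap5SA-3 and mKate2-2 held the highest levels of the inducible pair, and Yap5SA-1 the lowest.

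With the library as a block, edgeR called 48.9% of 16116 genes between MG and microglia-like cells (28.8% higher and 20.1% lower in MG) and 6 of the 10 members. *Cryab* was higher in MG by 4.91 ± 0.39 on the log2 scale (adjusted p = 1.04e-08) and *Hspb1* by 2.35 ± 0.47 (adjusted p = 0.000469). *Hspa1a* fell by 3.20 ± 0.51 (adjusted p = 4.79e-05), *Hspa1b* fell by 2.55 ± 0.40 (adjusted p = 3.37e-05), *Hspa5* fell by 1.69 ± 0.30 (adjusted p = 0.00016) and *Hspa8* fell by 0.83 ± 0.29 (adjusted p = 0.0242) in MG relative to microglia-like cells, against a median of 0.34 over all genes. *Hspa8* was lost without Yap5SA-3 (adjusted p = 0.188), where *Hsph1* was called instead.

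The MG against microglia difference itself changed between header versions for 2 members among 1.99% of 16116 genes called (1.35% up and 0.633% down). *Dnajb1* was 13.6 against 129 CPM and 29.6 against 84.3 CPM for MG against microglia-like cells in the 8.0.0 libraries, and 749 against 112 CPM and 421 against 549.5 CPM in the 9.0.1 libraries, a change of 3.26 ± 0.59 in the log2 difference (adjusted p = 1.17e-05). *Hsph1* was 70.0 against 16.1 CPM and 69.1 against 15.9 CPM, and then 258 against 109 CPM and 106 against 403 CPM, a change of -2.67 ± 0.60 (adjusted p = 0.00103). The median gene moved by -0.24 with TMM scaling and by -0.01 with RLE size factors, under which the 2 changes were 3.49 and -2.48. DESeq2 called neither among 0.639% of genes, *Dnajb1* was lost without mKate2-2 (adjusted p = 0.189), and *Hsph1* was lost without each of the other 3 libraries in turn (adjusted p = 0.0512 to 0.446).

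At least 10 rod-like cells were found only in the 9.0.1 libraries, 482 and 428 of them in mKate2-2 and Yap5SA-3. *Hsp90aa1* stood at 2912 and 3907 CPM in them, *Cryab* at 19.1 and 36.4 CPM, *Hspb1* at 7.52 and 2.73 CPM and *Hsp90ab1* at 395 and 231 CPM. Against these cells edgeR called 56.3% of 14325 genes (32.7% higher and 23.6% lower in MG) and 6 members, all higher in MG: *Hspb1* by 5.51 ± 0.43 on the log2 scale (adjusted p = 1.32e-05), *Cryab* by 5.46 ± 0.42 (1.2e-05), *Dnajb1* by 3.36 ± 0.29 (2.08e-05), *Hsp90ab1* by 2.09 ± 0.33 (0.000819), *Hsph1* by 1.73 ± 0.29 (0.00111) and *Hspa8* by 1.17 ± 0.32 (0.0131). *Hsp90aa1*, at -0.56 ± 0.45, did not pass (adjusted p = 0.322). The difference of *Dnajb1* rested on the deepest MG stratum. Rod-like cells held 92.5 and 36.4 CPM of *Dnajb1* in mKate2-2 and Yap5SA-3. The shallower MG strata of these libraries held only 62.4 to 78.0 and 9.95 to 28.9 CPM. For *Hsph1* rod-like cells held 64.0 and 45.9 CPM and these strata 52.4 to 64.1 and 43.1 to 58.4 CPM. *Hspb1*, *Cryab*, *Hsp90ab1* and *Hspa8* stood above rod-like cells in every MG stratum. Only 2 libraries entered, which leaves 1 residual degree of freedom, and the fit without either of them could not be made.

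Cone-like cells, 41 and 51 in the same libraries, differed widely between these libraries. *Hspa1a* stood at 108 CPM in mKate2-2 and 1087 CPM in Yap5SA-3, *Dnajb1* at 77.2 and 1139 CPM, *Hsph1* at 361 and 1106 CPM and *Hsp90aa1* at 2231 and 4918 CPM. *Cryab* stood at 4.37 and 14.8 CPM. In bipolar-like cells (277 and 80) and amacrine-like cells (68 and 13) *Hspa1a* stayed between 15.5 and 44.7 CPM and *Dnajb1* between 31.6 and 62.9 CPM. Both lay below the summed MG of the same library. In Yap5SA-3 this order rested on the deepest MG stratum. The shallower strata there held 6.63 to 10.1 CPM of *Hspa1a* and 9.95 to 28.9 CPM of *Dnajb1*. Bipolar-like and amacrine-like cells held 44.7 and 40.7 CPM and 50.9 and 62.9 CPM. In mKate2-2 the shallower strata held 14.0 to 24.7 CPM of *Hspa1a*, against 17.1 and 15.5 CPM. *Dnajb1* was higher there, at 62.4 to 78.0 CPM against 42.6 and 31.6 CPM. The cone-like, bipolar-like and amacrine-like classes had 1 library per virus and no test was made.

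**Figure D3:**
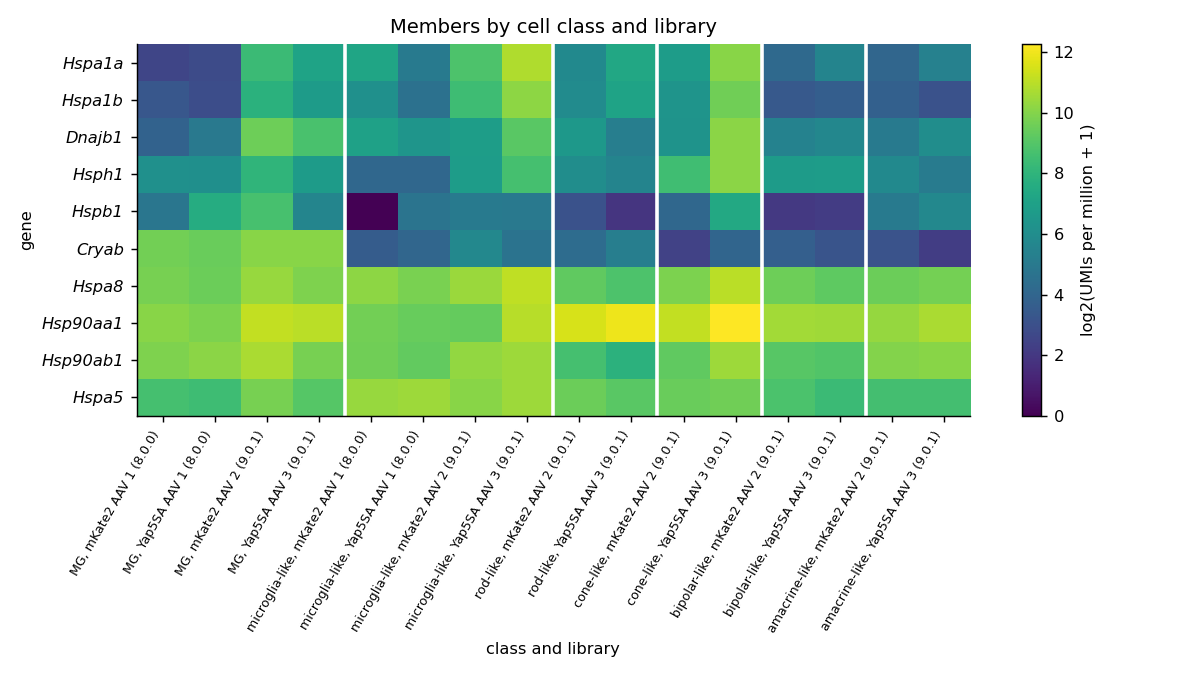
Heat map of log2(CPM + 1) for the 10 genes (rows) in each class and library (columns), with the classes separated by white lines. *Cryab* is bright in MG alone, and *Hspa1a*, *Hspa1b* and *Dnajb1* reach their highest values in microglia-like or cone-like cells of Yap5SA-3.

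**Figure D4:**
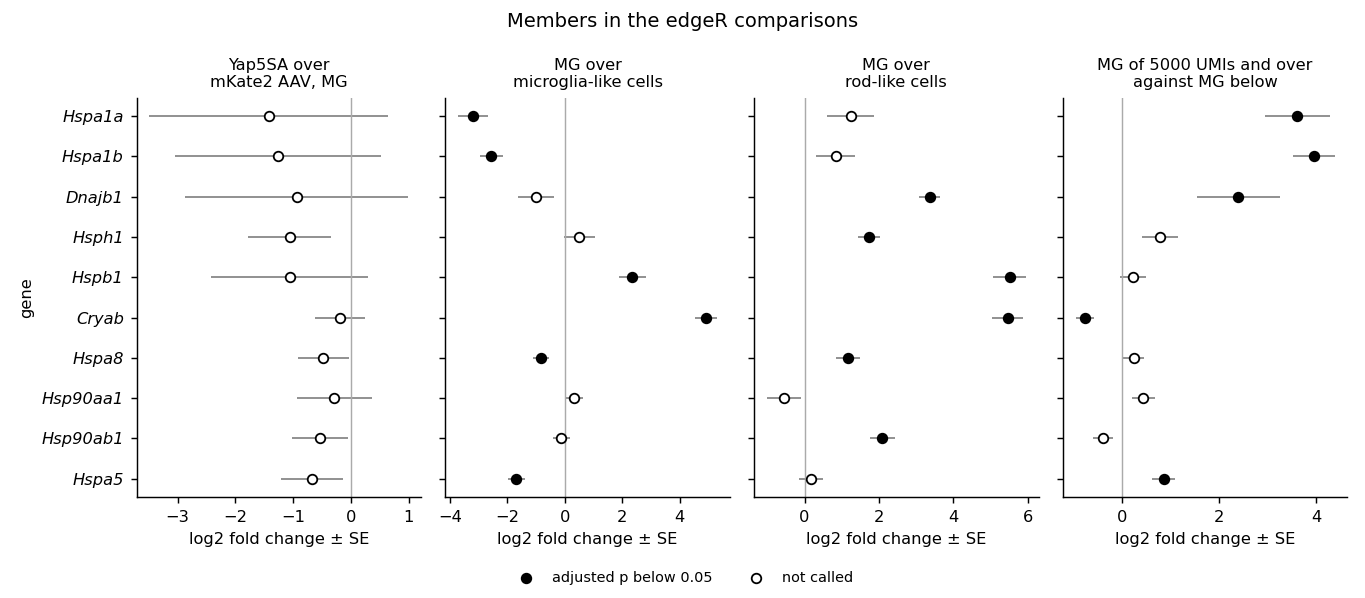
Log2 fold change with its SE for the 10 genes in 4 edgeR comparisons (virus in MG, MG over microglia-like cells, MG over rod-like cells, deeper over shallower MG), with filled points at an adjusted p below 0.05. The counts of filled points are 0, 6, 6 and 5.

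The rest of the chaperone network was read from 8 lists that hold none of the members. Between the viruses none of their genes was called, with *Bag3*, the BAG protein of inducible HSP70, at -0.85 ± 0.71 (adjusted p = 1.00). Against microglia-like cells 11 of 19 ER chaperones and unfolded protein response genes were lower in MG and none was called higher, where 20.1% of all genes were lower and 28.8% higher. They were led by *Sdf2l1* (-3.89), the sensor *Atf6* (-2.32) and the factor *Xbp1* (-1.86), and the median of the list was -0.76 against 0.34 over all genes. *Ddit3* (0.20) and *Canx* (0.06) were not called. *Hspa5* was lower as well. Of 5 tested small heat-shock genes *Hspb2* (3.37), *Hspb6* (2.11) and *Cryaa* (1.87) were higher in MG and *Hspb3* (-6.34) lower. *Cryaa* had UMIs in MG of the 9.0.1 libraries only, those with the higher lens marker sums. Among the J-domain genes *Dnaja4* (2.40) and *Dnajb2* (2.05) were higher and none of 11 lower, and of 7 other HSP70 and HSP110 genes *Hspa4l* (2.47) was higher.

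Of the further classes single genes passed, beside the same 28.8% higher and 20.1% lower among all genes. Of 17 HSP90 co-chaperone and BAG genes *Fkbp4* (1.32), *Bag5* (0.93) and *Stub1* (0.82) were higher in MG than in microglia-like cells and *Fkbp5* (-1.47) and *Bag1* (-1.28) lower. Of 6 mitochondrial chaperones *Clpb* (1.38) was higher and *Hspe1* (-0.90) lower, of 8 subunits of the TRiC chaperonin *Cct4* (-1.02) was lower, and of 3 tested HSF factors none passed (*Hsf5* at 0.92, adjusted p = 0.412). The immediate-early list had 6 of 16 lower in MG, led by *Klf2* (-4.26), *Atf3* (-3.36) and *Klf6* (-3.02).

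Against rod-like cells all 16 immediate-early genes were higher in MG, led by *Klf4* (5.92), *Zfp36* (5.33) and *Klf6* (4.84), and *Bag3* was higher by 7.37 ± 0.37, where 32.7% of all genes were higher and 23.6% lower. Summed over the 16 genes, MG strata below 10000 UMIs held 4557 to 5451 CPM in mKate2-2 and 2803 to 3828 CPM in Yap5SA-3. Rod-like cells of these libraries held 5931 and 3827 CPM, and MG of at least 10000 UMIs 41597 and 28512 CPM. Of 19 ER genes 4 were higher, *Dnajb9* (2.11), *Herpud1* (1.32) and *Ddit3* (0.89) first, and 4 lower, *Atf4* (-1.13), *Atf6* (-0.95) and *Ern1* (-0.93) first, which are smaller proportions than among all genes. In the other lists *Hspb2* (8.82), *Cryaa* (3.13), *Hspa13* (1.33), *Dnaja1* (1.48), *Dnajb4* (0.87), *Hspe1* (1.57) and *Stub1* (0.69) were higher in MG. The lower ones were *Hspb6* (-1.87), *Hspa12a* (-2.15), *Hspa4l* (-1.32), *Hspa14* (-0.64), *Dnajc5* (-1.55), *Dnajb14* (-0.63), *Fkbp5* (-1.46), *Ahsa2* (-0.89), *Hsf2* (-1.50) and the TRiC subunits *Cct4* (-1.08), *Cct5* (-0.86) and *Cct6a* (-0.67).

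By depth, where 19.1% of all genes were higher and 14.2% lower in the deeper MG, the lists differed in their counts. In MG of at least 5000 UMIs 15 of 16 immediate-early genes rose, led by *Nr4a1* (5.39), *Klf4* (4.59) and *Klf2* (4.21), and 6 of 19 ER genes rose, led by the sensors *Ern1* (1.84) and *Atf6* (1.25) and by *Dnajb9* (1.12), with none lower. TRiC subunits fell in 5 of 8, led by *Tcp1* (-0.66), *Cct2* (-0.64) and *Cct5* (-0.64), and HSP90 co-chaperone and BAG genes fell in 8 of 17, led by *Bag1* (-1.33), *Stub1* (-0.88) and *Cdc37* (-0.85), while *Bag3* rose by 1.54. *Hspa1l* (4.36), which lies next to *Hspa1a*, *Hspa13* (0.89), *Hsf5* (3.24), *Dnajb4* (0.79) and *Dnajb14* (0.53) rose too, and *Dnajb2* (-0.77), *Hspb2* (-1.22), *Cryaa* (-3.43) and *Grpel1* (-0.92) fell. The lens markers, given above, stood lower in the deepest MG of the 9.0.1 libraries too, and their part in *Cryaa* was not tested. Median shifts were 2.15 for the immediate-early list, 0.35 for the ER list, -0.58 for TRiC and -0.55 for co-chaperones, against 0.14 over all genes and 0.61 over the 10 members.

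Of the same lists, *Bag3* (2.04), *Hspe1* (0.71) and *Dnajb4* (0.79) had a larger depth effect in the 9.0.1 libraries, and *Hspa4* (-0.74), *Bag5* (-0.85) and the TRiC subunits *Cct7* (-0.79), *Cct5* (-0.65) and *Cct2* (-0.63) a smaller one. Of 19 ER genes 5 were larger, *Ddit3* (1.79), *Ern1* (1.40) and *Atf6* (1.40) first, and 6 smaller, against 10.1% and 6.89% of all genes, *Pdia6* (-1.17), *Canx* (-0.99) and *Dnajb11* (-0.80) first. The immediate-early list had 13 of 16 larger, led by *Nr4a1* (5.10), *Atf3* (4.11) and *Klf6* (3.66). For the change of the MG against microglia difference between versions only immediate-early genes were called, 15 of 16, led by *Atf3* (5.04), *Klf4* (4.56) and *Fosb* (4.25). Between header versions in MG none of the listed genes was called by edgeR.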

How the data were processed

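The authors sorted tdTomato-positive retinal cells, made 3′ libraries with the 10x Genomics v3.1 kit and ran Cell Ranger on GRCm39. The submitters' processing notes name version 8.0.0, whereas the deposited file headers name 8.0.0 in 3 libraries and 9.0.1 in 2. The deposited values are raw UMI counts per gene and cell, filtered for cells by the authors' pipeline and not normalized. UMIs were counted per molecule and are not scaled to transcript length, so levels are compared between cells and not between genes. Strand and multi-mapping settings are not given in the sources used here.

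The 10 genes, the cell rules and the gene lists were chosen with earlier results of these data known. Counts were summed over the cells of a class in a library, and CPM is that sum per 1000000 UMIs. A cell outside MG was given the class (microglia-like, rod-like, cone-like, bipolar-like or amacrine-like) for which its marker share passed a minimum of 0.5%, 2%, 0.5%, 0.3% or 0.3%, limits set after the shares were seen. No doublet caller was run, and 101 MG that also met another rule were left out in an alternative. A class was used in a library with at least 10 cells. Between 33 and 80 cells of a library had an MG marker share of 0.4% to 0.5%, just under the limit, and between 38 and 72 one of 0.5% to 0.6%.

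Tests were edgeR's quasi-likelihood test (edgeR 4.0.16, limma 3.58.1, R 4.3.3) with TMM scaling and filterByExpr, checked on simulated data, and Benjamini-Hochberg adjustment at 0.05 over all genes tested. DESeq2 1.42.0 was an alternative. Libraries were the replicates, and with 2 against 2 an exact two-sided permutation test cannot go below 0.333, so none was run. Differences between classes or depths used the library as a block. The difference between header versions was fitted with virus as a second term. Sums and shares were made in Python 3.11.15 (numpy 2.4.6, pandas 2.3.3, scipy 1.17.1). All members are named, and of each list the called genes, at most 3 per direction by fold change. Intervals are exact Clopper-Pearson at 95%.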

Additional observations from a re-analysis of the deposited data

Results flagged for a closer look

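*Hspb1* in MG moved in opposite directions with *Yap5SA* AAV in the libraries of the 2 header versions, by 2.86 on the log2 scale in 8.0.0 and by -3.14 in 9.0.1, with 1 library per virus in each. This difference was not tested. The effect of depth on MG differed between header versions, by the interaction term of the edgeR fit, for *Dnajb1* (4.46), *Hspa1a* (4.29), *Hspa1b* (2.66), *Hsph1* (1.89), *Hsp90aa1* (0.84) and *Hspa8* (0.72), all on the log2 scale with a larger rise in the 9.0.1 libraries. By the same kind of term the MG against microglia difference changed between versions by 3.26 for *Dnajb1* and by -2.67 for *Hsph1*. The groups hold 2 libraries each, so a single library standing apart could not be tested.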

How the results depend on the processing

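No member called in the main tests changed direction under any alternative run (scaling, filter on low counts, DESeq2, MG rules, mitochondrial limit, Yap5SA-2 in place of Yap5SA-1, each library left out, cell minimum or depth limits). Over 940 values of members, 841 kept direction and side of the threshold, 37 lost and 35 gained the threshold and 27 changed sign, 23 of these with a library left out. The rod comparison holds only mKate2-2 and Yap5SA-3. Its fits without mKate2-1, without Yap5SA-1 and with Yap5SA-2 in place of Yap5SA-1 repeat the main fit, so their values could not change. Of 106 counts and shares, 17 moved. For counts of genes this meant a change of over 1.5 times, or any change from or to 0. For the summed share it meant a change of at least the SD between libraries, 0.269 percentage points. No paired analysis was possible because the viruses share only 1 replicate number. Header version, which holds 1 library of each virus at each level, was used as the block between the viruses instead, and that edgeR fit called 0 genes, with 151 genes and 1 member at an unadjusted p under 0.05. The version test without a library, and the rod test without mKate2-2 or Yap5SA-3, were not run because no residual degrees of freedom were left.

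Between header versions the 0 genes called became 39 without a filter, 530 in DESeq2, 5 with *Clu* out of the MG rule and 148 with version alone. By depth the 4847 genes became 20 at a limit of 8000 UMIs and 0 at 10000 UMIs, and 2372 to 4960 without a library. The version difference of the MG against microglia contrast gave 103 genes in DESeq2 and 134 to 375 without a library, against 320. That of the depth effect gave 1248 in DESeq2, 1153 without *Clu*, 5085 and 5914 at limits of 8000 and 10000 UMIs and 971 to 2795 without a library, against 2483. The cause was not tested. The difference in summed share ran from -0.393 to 0.100 percentage points without a library, against -0.146 in the main run. Its sign changed without mKate2-2.

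Without a library in turn, the log2 difference between the viruses ran from -5.01 to 3.90 for *Hspa1a*, -4.42 to 2.64 for *Hspa1b*, -3.90 to 4.10 for *Dnajb1*, -2.39 to 2.17 for *Hspb1*, -1.75 to 0.35 for *Hsph1*, -1.18 to 0.13 for *Hspa5*, -1.01 to 0.47 for *Hsp90aa1*, -0.96 to 0.089 for *Hsp90ab1*, -0.84 to 0.024 for *Hspa8* and -0.55 to 0.19 for *Cryab*. Against microglia-like cells it ran from -0.11 to 0.53 for *Hsp90aa1*, -0.018 to 1.40 for *Hsph1* and -0.36 to 0.17 for *Hsp90ab1*, by depth from -0.14 to 0.43 for *Hspb1*, and for the version difference of the microglia contrast from -1.16 to 1.32 for *Hspa1b*, -0.15 to 2.78 for *Hspa1a*, -0.38 to 0.92 for *Hsp90aa1* and -8.54 to 0.22 for *Hspb1*. For that of depth it ran from -0.14 to 1.10 for *Hspa5* and -0.10 to 1.21 for *Hspb1*. Signs also changed for *Hspa5* against rod-like cells without *Clu* (-0.0055), *Dnajb1* between viruses with version as a term (0.019) and *Cryab* in the depth difference at 8000 and 10000 UMIs (-0.21 and -0.55).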

Other observations

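*Gfap*, whose promoter drives the viral cargo, stood at 24.2 and 284 CPM in MG of mKate2-1 and mKate2-2 and at 125 and 6.38 CPM in those of Yap5SA-1 and Yap5SA-3. It was named after its values were seen, because its order of libraries puts the same 2 on top as that of *Hspb1* (26.9, 409, 195 and 46.3 CPM). The 6 MG markers outside the cell rule had these 2 on top as well, with a summed level of 6726, 8208, 7999 and 7440 CPM, whereas *Sox9* (435, 773, 443 and 722 CPM) and *Lhx2* (191, 207, 143 and 268 CPM) were highest in mKate2-2 and Yap5SA-3.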
